A study of Arabidopsis thaliana with 4 samples.

Results

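Dehydration was compared with non-stress in the polysomal RNA of Arabidopsis thaliana, the RNA that carries more than 1 ribosome. Of the 4 arrays of the series, 2 hold this comparison: dehydration polysomal RNA, set over non-stress polysomal RNA. The difference was taken for 22746 of the 22810 probe sets on the ATH1 array, all those that are not controls. The other arrays hold non-polysomal RNA, free or with a lone ribosome, of dehydrated plants and of unstressed plants, and their values stand beside the polysomal ones throughout. Each group has 1 array, so no difference has a replicate check, none was tested, and genes are described by size.

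The labels give no genotype, tissue, age or length of dehydration. Signals are intensities on a linear scale, brought by the authors to a common mean of 500 on every array, so a difference is relative to the average transcript and does not show how much RNA was in polysomes. A signal under 69.9 is dimmer than the lower limit used here, and a difference that rests on it is printed as a bound. Such signals made up 29.1% of the dehydration polysomal array and 27.4% of the non-stress polysomal array. Only probe sets whose log2 signal, averaged over all arrays, reached the median of the table are described, 11373 in all, and these are called measured. A gene locus is given by its brightest measured probe set, and 5978 loci had one. Both dehydration arrays were hybridized on 1 day and both non-stress arrays on another, so that day and dehydration cannot be told apart. In RNA from many cells, fewer cells of a type and less RNA per cell cannot be told apart either.

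A messenger RNA on polysomes is generally being translated, so its level there depends on how much of the transcript exists and on how well ribosomes load it. Water deficit raises the hormone abscisic acid (ABA), which relieves a set of protein kinases from inhibition by phosphatases and so switches on protective genes, among them late embryogenesis abundant (LEA) proteins, hydrophilic proteins that shield other proteins and membranes in drying cells. Drying plants also slow growth, which needs loosening of the cell wall, and recycle protein and stored carbon.

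Most transcripts differed by less than 2-fold between the polysomal arrays. A difference of 2-fold or more was read upward under dehydration for 723 measured probe sets (6.36%) and downward for 635 (5.58%). Among the named loci 354 (5.92%) were higher by this measure, 290 (4.85%) lower and 5334 between. The larger differences were more often upward: 4-fold or more was reached by 86 loci upward (1.44%) and by 34 downward (0.569%), and at 8-fold the numbers were 25 and 7. The log2 difference had an SD of 0.733 over measured probe sets, with its percentile 10 at -0.76 and its percentile 90 at 0.79, and the median over loci was -0.01. Where 2 or more measured probe sets stood for a locus, as they did for 48 loci, their log2 differences disagreed with an SD of 0.430.

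**Figure D1:**
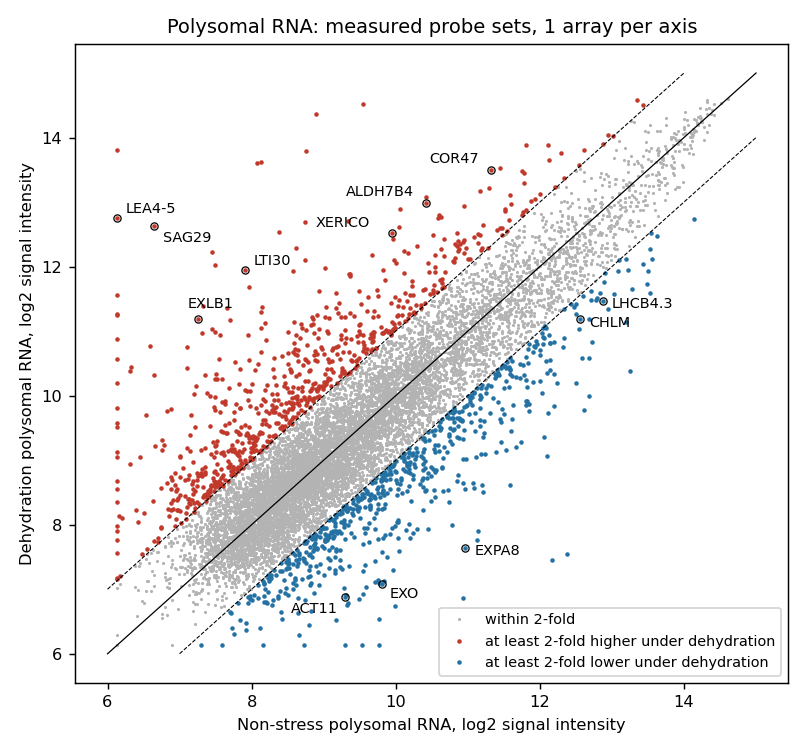
Log2 signal intensity of the 11373 measured probe sets in dehydration polysomal RNA (vertical axis) against non-stress polysomal RNA (horizontal axis), 1 array each. Red points are the 723 higher under dehydration by 2-fold or more, blue points the 635 lower by as much and grey points the rest; the solid line marks equal signals, the dashed lines 2-fold, and signals under the lower limit are drawn at it.

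The largest polysomal difference of a named gene was that of LEA4-5, a late embryogenesis abundant protein. Its signal was 6895 in dehydration polysomal RNA, against 63.0, under the limit, in non-stress polysomal RNA, which makes it at least 98.6-fold higher. In non-polysomal RNA it had 2909.9 under dehydration and 352 without stress. The transcript was thus read in both fractions of dehydrated plants and in the non-polysomal fraction of unstressed plants, and was under the limit only on the non-stress polysomal array.

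This on and off pattern was shared by 15 measured probe sets, which were under the limit in non-stress polysomal RNA and at least 4 times the limit in dehydration polysomal RNA. They name 11 loci: besides LEA4-5 these were AT3G53980, AT5G50360, AT3G02480, AT3G17520, AT1G16850, AT5G45630, AT5G53710, AT5G66780, AT5G56520 and AT1G55760. AT3G02480 had 2431 in dehydration polysomal RNA, against 7.6 in non-stress polysomal RNA, and 465 and 308 in the non-polysomal counterparts. AT3G53980 had 3010.3 in dehydration polysomal RNA, against 34.9 in non-stress polysomal RNA, and 482 and 402 in the non-polysomal counterparts. For these loci the polysomal arrays stood far apart, at least 34.8-fold and at least 43.0-fold, while the non-polysomal signals lay within 1.51-fold and 1.20-fold. AT5G45630 was unlike them, with 729 and 47.4 in dehydration and non-stress polysomal RNA and 1175 and 75.4 in the non-polysomal counterparts, a difference of at least 10.4-fold in polysomal and 15.6-fold in non-polysomal RNA. Measured probe sets were chosen on the mean over all 4 arrays, which favours those bright in non-polysomal RNA. Outside that choice AT3G57010 had 605 and 5.7 in dehydration and non-stress polysomal RNA and 194 and 57.3, the second under the limit, in the non-polysomal counterparts. The opposite pattern, under the limit in dehydration polysomal RNA and bright without stress, was found for 4 probe sets, which name RR16 and AT1G04040.

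SAG29, a SWEET-family sugar transporter that marks senescing leaves, came next. It had 6332 in dehydration polysomal RNA, against 100.4 in non-stress polysomal RNA, and 7699.5 and 459 in the non-polysomal counterparts. Both dehydration signals lay above both non-stress signals, a 63.1-fold difference in polysomal and a 16.8-fold difference in non-polysomal RNA. LTI30, a dehydrin, had 3945.5 and 240.3 in dehydration and non-stress polysomal RNA and 996 and 455 in the non-polysomal counterparts. EXLB1, an expansin-like cell wall protein, had 2345 and 153 in dehydration and non-stress polysomal RNA and 558.5 and 356 in the non-polysomal counterparts. For both genes the dehydration polysomal array stood above the other arrays. PUB19, a U-box ubiquitin ligase known as a brake on ABA responses, was equally bright in both dehydration fractions, with 3305 and 3322 in polysomal and non-polysomal RNA, against 250.2 and 435 in the same fractions without stress.

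The other loci among the 15 highest were AT5G15190 (log2 difference 4.78), AT2G37870 (4.54), AT1G05340 (4.17), AT3G13672, listed under the synonym SINA2 (4.06), AT1G67920 (4.06) and AT2G41190 (3.96). Of the 15 highest, 14 were also higher under dehydration in non-polysomal RNA. The exception was AT1G05340, with 1742 in dehydration polysomal RNA, against 96.6 in non-stress polysomal RNA, while the non-polysomal pair was 903 under dehydration and 1715 without stress.

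EXPA8, an expansin, which loosens cell walls in growing cells, was the lowest gene with a symbol. Its signal was 199.6 in dehydration polysomal RNA, against 2000.6 in non-stress polysomal RNA, and 295.6 and 1360.2 in the non-polysomal counterparts. EXO, a brassinosteroid-responsive gene that promotes leaf growth, had 135.5 and 898 in dehydration and non-stress polysomal RNA and 18.7 and 313 in the non-polysomal counterparts. Both genes were low in both fractions of dehydrated plants, EXO being under the limit in the non-polysomal one. AT1G22690 lay lowest of the named loci with both polysomal signals over the limit, with 116.5 and 1948 in dehydration and non-stress polysomal RNA and 170.2 and 920 in the non-polysomal counterparts. AT1G04040 had 10.9, under the limit, in dehydration polysomal RNA and 869 in non-stress polysomal RNA, and was at least 12.4-fold lower.

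The remaining loci of the 15 lowest had log2 differences between -3.37 and -2.46: AT1G11850 (-3.37), AT1G47400 (-3.24), AT3G06070 (-3.23), AT4G23820 (-3.23), AT5G44020 (-2.71), AT3G54400 (-2.70), AT1G23205 (-2.67), AT1G06830 (-2.66), AT5G19120 (-2.60), AT3G07010 (-2.55) and AT1G29660 (-2.46). All 15 were also lower under dehydration in non-polysomal RNA. The smallest non-polysomal difference among them was that of AT3G07010, with 110 and 645 in dehydration and non-stress polysomal RNA and 528 and 717.5 in the non-polysomal counterparts. The annotation used here gives these loci no name, so no function is stated for them.

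**Figure D2:**
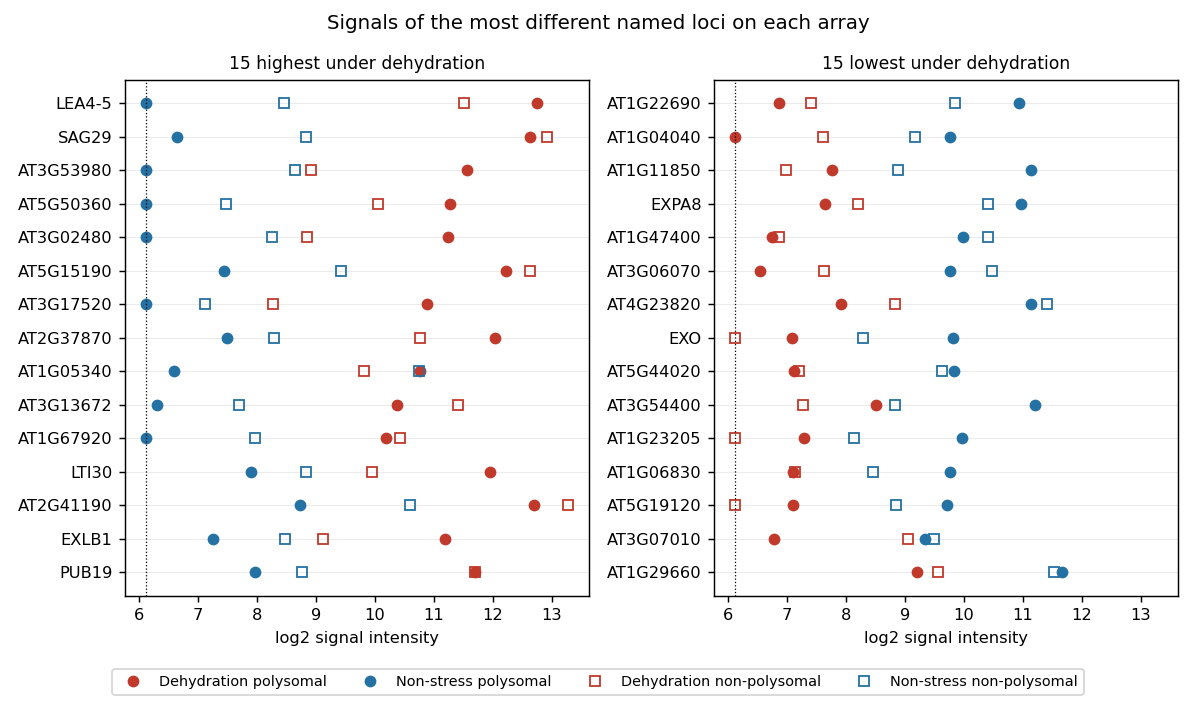
Log2 signal intensity (horizontal axis) on each of the 4 arrays for the 15 named loci highest (left) and the 15 lowest (right) in dehydration over non-stress polysomal RNA. Filled circles are polysomal and open squares non-polysomal RNA, red is dehydration and blue non-stress, and the dotted line is the lower limit, at which dimmer signals are drawn; of the highest loci only AT1G05340 has its red square left of its blue one.

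Genes known to answer dehydration and ABA were mostly higher. Of the 9 measured members 5 were higher by 2-fold or more, beside 5.92% of all measured loci, none was lower by as much and 8 lay above 0, with a median of 1.16 with DI21 at its bound, beside -0.01 over all measured loci. In addition to LTI30, the higher members include ALDH7B4, an aldehyde dehydrogenase that clears toxic aldehydes, with 8099 and 1368 in dehydration and non-stress polysomal RNA and 5741.5 and 1500.4 in the non-polysomal counterparts. COR47, a dehydrin, had 11503 in dehydration polysomal RNA, against 2553 in non-stress polysomal RNA, and 2668 and 978 in the non-polysomal counterparts. It was the brightest member on the dehydration polysomal array, 2.17 above its unstressed level on the log2 scale.

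COR15A and COR15B, cold-regulated proteins of the chloroplast, did not go together. COR15A had 6051.5 and 2700.4 in dehydration and non-stress polysomal RNA, a log2 difference of 1.16, and COR15B had 1696 and 2674, a difference of -0.66. COR15B was lower in non-polysomal RNA as well, with 585 under dehydration and 1232 without stress. The drought-induced genes DI19 and DI21 were brighter in non-polysomal than in polysomal RNA of the same plants. DI19 had 1914 and 1106 in dehydration and non-stress polysomal RNA and 12518 and 10614 in the non-polysomal counterparts. DI21 had only 129 in dehydration polysomal RNA, against 48.2, under the limit, in non-stress polysomal RNA, but 2331 and 226 in the non-polysomal counterparts, so that its 10.3-fold non-polysomal difference stood beside a polysomal one of at least 1.85-fold. The dehydrin gene AT1G54410, listed under the synonym HIRD11, had 11067 and 7769.9 in dehydration and non-stress polysomal RNA, a difference of 0.51.

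STZ, ORA47, XERICO and HIS1-3, regulators with known roles in stress, come from separate lists and were each at least 2-fold higher. STZ was the 1 measured member of its list, and the list of ORA47 had 2, the other being TINY2, within 2-fold. In the lists of XERICO and HIS1-3 most other measured members were within 2-fold. STZ, a zinc-finger repressor induced by salt and drought, had 2207 in dehydration polysomal RNA, against 461 in non-stress polysomal RNA, and 1284 and 354 in the non-polysomal counterparts. ORA47, an AP2-type activator of jasmonate and ABA synthesis, had 1869 and 294 in dehydration and non-stress polysomal RNA and 3003 and 349 in the non-polysomal counterparts. XERICO, a RING protein that raises ABA levels, had 5883 and 984 in dehydration and non-stress polysomal RNA and 4803 and 2022 in the non-polysomal counterparts. For all 3 genes each dehydration signal lay above both non-stress signals. HIS1-3, a linker histone induced by drought, had 1959 in dehydration polysomal RNA, against 189 in non-stress polysomal RNA, and 1390.2 and 439 in the non-polysomal counterparts. It was the 1 of 5 measured histone genes that was at least 2-fold higher, beside 5.92% of all measured loci, the others lying between -0.89 and 0.55.

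Of 11 bZIP factors none was at least 2-fold higher and 1 was lower, beside 5.92% and 4.85% of all measured loci. Their median of 0.00 turned to -0.03 under quantile normalization and to -0.06 under scaling on the hybridization controls. The farthest upward was BZIP28, a membrane-bound factor of the endoplasmic reticulum stress response, at 0.97, with 1137 and 582 in dehydration and non-stress polysomal RNA and 578.5 and 595 in the non-polysomal counterparts. BZIP60, which serves the same response, was at 0.64. HYH, a light-signalling factor close to HY5, was lower, with 165 and 651 in dehydration and non-stress polysomal RNA and 263 and 1032 in the non-polysomal counterparts. The HD-Zip factors HAT2 (0.77) and PHV (0.86), the WRKY factors ZAP1 (0.13) and WRKY20 (-0.16), NAC014 (0.18) and the AP2-type TINY2 (-0.04) all lay within 2-fold.

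Genes of other hormones were thinly covered. RR16, a response regulator of cytokinin signalling, had 48.4, under the limit, and 287 in dehydration and non-stress polysomal RNA and 117 and 1066.5 in the non-polysomal counterparts, so it was at least 4.10-fold lower in polysomal and 9.11-fold lower in non-polysomal RNA. JMT, which makes methyl jasmonate, had 194 and 599 in dehydration and non-stress polysomal RNA, a difference of -1.63. OPCL1, of jasmonate synthesis, had 1531 and 792 (0.95) and MYC3, a jasmonate transcription factor, 497 and 519.7 (-0.06). The jasmonate list thus had 1 of 3 members lower and none higher at 2-fold, beside 4.85% and 5.92% of all measured loci. The gibberellin receptors GID1A (0.41) and GID1C (0.21), the ethylene factor EIN3 (0.51) and the auxin repressors IAA18 (0.15) and IAA29 (-0.22) were within 2-fold.

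Genes of amino acid breakdown, a list added after the values were seen, were higher in polysomal RNA, where all 12 measured members lay above 0. By 2-fold or more 8 were higher, beside 5.92% of all measured loci, and none lower, and the median was 1.11. Without the filter on dim probe sets 9 of 14 were higher by this measure, 1 was lower by as much and 13 lay above 0. The 8 became 7 under quantile normalization and under scaling on the hybridization controls. The members run from the enzymes that attack the amino acids to the proteins that pass their electrons to respiration. AT4G33150, the bifunctional enzyme of lysine breakdown (synonym LKR/SDH), had 1290.5 in dehydration polysomal RNA, against 182.3 in non-stress polysomal RNA, and 1121 and 430.5 in the non-polysomal counterparts. MGL, methionine gamma-lyase, had 2772 and 594 in dehydration and non-stress polysomal RNA and 1707 and 362.5 in the non-polysomal counterparts. These enzymes were the farthest up, at 2.82 and 2.22, and were higher in both fractions.

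In the branched-chain pathway the differences were smaller than those of AT4G33150 and MGL. MCCA, the biotin-carrying subunit of methylcrotonyl-CoA carboxylase of leucine breakdown, had 349 and 134.6 in dehydration and non-stress polysomal RNA and 280.0 and 207.5 in the non-polysomal counterparts, and its partner subunit MCCB had 1148 and 768 in dehydration and non-stress polysomal RNA. ALDH6B2, methylmalonate-semialdehyde dehydrogenase of valine breakdown, had 1931.5 and 827 in dehydration and non-stress polysomal RNA and 1039 and 734.5 in the non-polysomal counterparts. The branched-chain aminotransferase ATBCAT-5 had 1331 and 622 in dehydration and non-stress polysomal RNA. Whether this family member serves breakdown or synthesis was not examined. MCCA (2.60-fold), ALDH6B2 (2.34-fold) and ATBCAT-5 (2.14-fold) were past 2-fold and MCCB, at 0.58 on the log2 scale, was not. BCAT4, which belongs to methionine chain elongation for glucosinolates rather than to breakdown, was at 0.28, and D2HGDH, a hydroxyglutarate dehydrogenase of lysine breakdown, at 0.09.

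The electron-transfer flavoprotein, which takes electrons from some dehydrogenases of amino acid breakdown, has 2 subunits, and its oxidoreductase ETFQO hands the electrons to ubiquinone. ETFBETA had 989 and 456 in dehydration and non-stress polysomal RNA and 215 and 368 in the non-polysomal counterparts. ETFALPHA had 518 and 258 in dehydration and non-stress polysomal RNA and 507.5 and 425 in the non-polysomal counterparts. ETFQO had 475 and 297 in dehydration and non-stress polysomal RNA and 568.5 and 458 in the non-polysomal counterparts. Both subunits were thus about 2-fold higher in polysomal RNA (1.12 and 1.01), ETFQO less so (0.67), and ETFBETA was lower in non-polysomal RNA (-0.78). Over the list the non-polysomal median was 0.35, and 2 of 12 members were at least 2-fold higher there, beside 3.7% of all measured loci. In 11 of 12 members the polysomal difference was the higher one. The list was added after the polysomal values were seen, which favours such members, so this comparison of the fractions is a description only. DELTA-OAT, ornithine aminotransferase, was at 1.21 in polysomal and 0.40 in non-polysomal RNA.

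Autophagy genes, whose products wrap cell contents for delivery to the vacuole, lay above 0 in 9 of 10 measured members, with a median of 0.87. At 2-fold 4 were higher, by log2 differences of 1.03 to 1.26, beside 5.92% of all measured loci, and none lower. The 4 became 1 under quantile normalization and 2 under scaling on the hybridization controls. All but ATG3 and AT5G66930 are ATG8 genes, which code for the ubiquitin-like protein that coats the autophagosome. ATG8C had 949 and 396 in dehydration and non-stress polysomal RNA and 526.5 and 289 in the non-polysomal counterparts. APG8A had 1271 and 597 in dehydration and non-stress polysomal RNA and 544 and 491 in the non-polysomal counterparts. APG8H had 2477 and 1205 in dehydration and non-stress polysomal RNA and 1504 and 872 in the non-polysomal counterparts. In these genes the dehydration polysomal array was the brightest of the 4.

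ATG8B (1.03), ATG8G (0.92), ATG8D (0.66) and ATG8F (0.63) lay above 0, ATG8B past 2-fold and the others within it, and so did ATG3 (0.82), the enzyme that joins ATG8 to lipid. AT5G66930, listed under the synonym ATG101 of the initiation complex, was at 0.31. ATG8E stood apart at -0.02, with 250.4 and 254.5 in dehydration and non-stress polysomal RNA. All 10 members had a higher difference in polysomal than in non-polysomal RNA, where the median was 0.42. None was at least 2-fold different there, beside 3.7% of all measured loci higher and 3.91% lower. Family members with alike sequences can share probes, so values of single ATG8 genes are uncertain.

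Vacuolar sorting and processing genes, on lists also added after the values were seen, were higher in part. BETA-VPE, a vacuolar processing protease, had 1809 and 386 in dehydration and non-stress polysomal RNA and 1113 and 452 in the non-polysomal counterparts. GAMMA-VPE, the main form of leaves, had 7348 and 3496 in dehydration and non-stress polysomal RNA and 2282 and 1609 in the non-polysomal counterparts. Both proteases were at least 2-fold higher in polysomal RNA (2.23 and 1.07). The ESCRT machinery sorts membrane proteins for breakdown in the vacuole, and its list median was 0.42. At least 2-fold higher were 2 of 10 measured members, VPS20.1 (1.14) and SNF7.2 (1.03), beside 5.92% of all measured loci. The 2 became 1 under quantile normalization and under scaling on the hybridization controls. VPS46.2 (0.84), VPS2.1 (0.75) and SNF7.1 (0.48) were between, and VPS9B was lowest at -0.79.

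**Figure D3:**
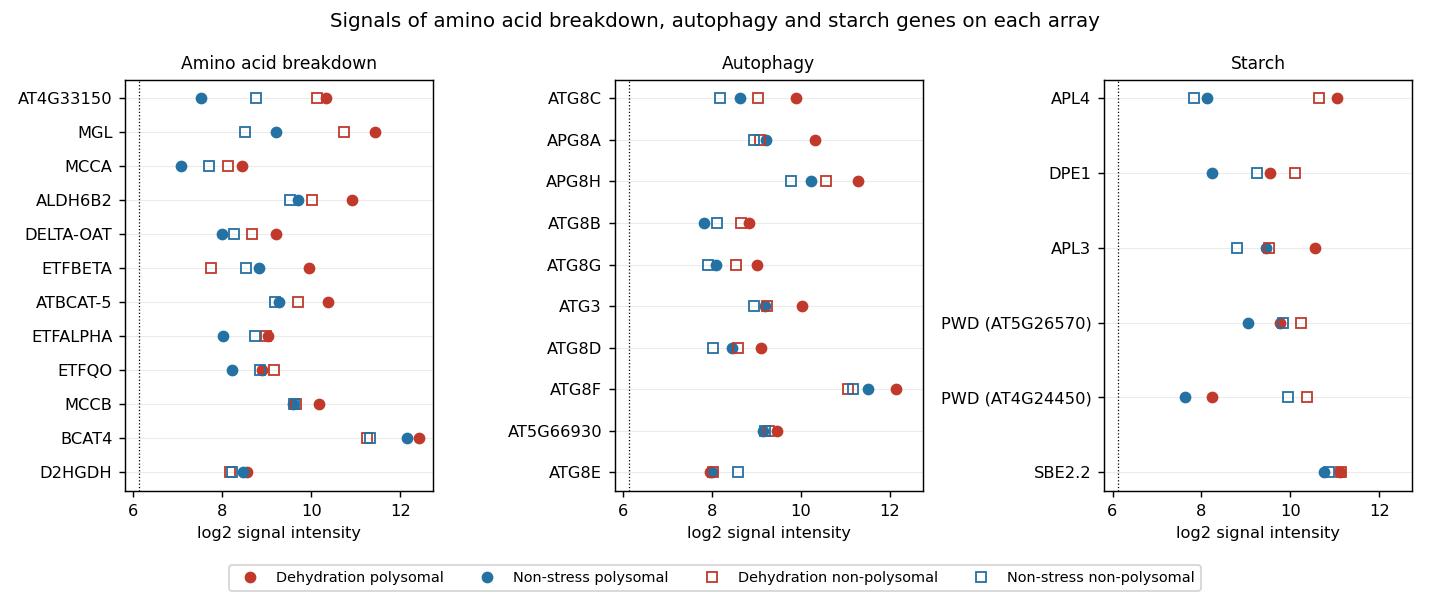
Log2 signal intensity (horizontal axis) on each of the 4 arrays for the measured genes of amino acid breakdown (left), autophagy (middle) and starch (right). Filled circles are polysomal and open squares non-polysomal RNA, red is dehydration and blue non-stress, and the dotted line is the lower limit; in every gene but ATG8E the red circle lies right of the blue circle.

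The starch list was also added after the values were seen. Its measured genes all lay above 0 in polysomal RNA. At least 2-fold higher were 3 of 6 measured members, beside 5.92% of all measured loci, and the median was 0.92. Without the filter on dim probe sets 3 of 8 were higher by this measure, 1 lay below 0 and the median was 0.67. APL4, a large subunit of ADP-glucose pyrophosphorylase, the enzyme that commits sugar to starch, had 2111 in dehydration polysomal RNA, against 280.5 in non-stress polysomal RNA, and 1590.1 and 227 in the non-polysomal counterparts. APL3, another such subunit, had 1501 and 702.5 in dehydration and non-stress polysomal RNA and 738 and 442 in the non-polysomal counterparts. DPE1, which rearranges maltotriose during starch breakdown in the plastid, had 739 and 302 in dehydration and non-stress polysomal RNA and 1097 and 605 in the non-polysomal counterparts. Genes of synthesis and of breakdown were thus both higher, and in all 6 members the polysomal difference was the higher one. With a list added after the polysomal values were seen, this too is a description only. The loci AT5G26570 (0.74) and AT4G24450 (0.60), both carrying the symbol PWD of a starch phosphorylating enzyme, and the branching enzyme SBE2.2 (0.35) were within 2-fold.

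Sugar transporters spread widely around a median of 0.10. At least 2-fold higher were 3 of 9 and lower 1, beside 5.92% and 4.85% of all measured loci. Besides SAG29, SWEET4 had 2392 and 457 in dehydration and non-stress polysomal RNA and 1337 and 439.9 in the non-polysomal counterparts. TMT2, a loader of sugar into the vacuole, had 2379.8 and 604 in dehydration and non-stress polysomal RNA and 2999 and 1415.5 in the non-polysomal counterparts, while its relative TMT1 had 767 in dehydration and 989 in non-stress polysomal RNA. SWEET2, a vacuolar sugar transporter, was lower, with 367 and 1617 in dehydration and non-stress polysomal RNA and 496 and 1598.5 in the non-polysomal counterparts. The phloem-loading transporter SWEET11 was level, with 3684.5 and 3428 in dehydration and non-stress polysomal RNA. ATSPS4F, a sucrose phosphate synthase, was lower, with 795 and 2783 in dehydration and non-stress polysomal RNA.

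Cell wall families went both ways. Of 8 expansins 2 were at least 2-fold higher and 1 lower, beside 5.92% and 4.85% of all measured loci, around a median of 0.11. EXPA16 had 477 and 205 in dehydration and non-stress polysomal RNA (1.22), and EXPB3 (-0.97) and EXPB1 (-0.74) lay on the other side with EXPA8. In the cellulose synthase family CSLD2, which serves tip growth, had 923 and 312 in dehydration and non-stress polysomal RNA and 421 and 304 in the non-polysomal counterparts, and the other 7 members were between -0.53 and 0.14. COB, needed for oriented cellulose, was level at 0.14. All 3 measured pectin methylesterase genes lay slightly below 0, at -0.25 (PMEPCRF), -0.31 (ATPMEPCRB) and -0.35 (PME61), as did the xyloglucan enzymes XTH32 (-0.16) and EXGT-A3 (-0.11).

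Trichome birefringence-like genes, which code for acetyltransferases of wall polymers, had a median of -0.34. On this list, added after the values were seen, 1 of 10 was at least 2-fold lower, beside 4.85% of all measured loci. TBL26 had 1497 and 4507 in dehydration and non-stress polysomal RNA and 876 and 2291 in the non-polysomal counterparts. TBL25 (-0.91), TBL37 (-0.85) and TBL35 (-0.73) followed, and TBL38 was highest at 0.91. IQ-domain proteins, which bind calmodulin and often associate with microtubules, had a median of -0.31, on a list also added after the values were seen. Of 7 measured members 1 was at least 2-fold lower, beside 4.85% of all measured loci. This was iqd21 at -1.53 (318 and 919.5 in dehydration and non-stress polysomal RNA). IQD24 (-0.97) and IQD23 (-0.79) followed, while iqd32 was at 0.70. Without the filter on dim probe sets 3 of 15 were lower by this measure, and the median was 0.

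Actins and tubulins were level or lower, with a median of -0.44 and 1 of 7 at least 2-fold lower, beside 4.85% of all measured loci. ACT11 had 118 and 627 in dehydration and non-stress polysomal RNA and 135 and 274 in the non-polysomal counterparts. TUA1 (-0.74), TUB5 (-0.58) and TUB7 (-0.44) were below 0, and TUB6 was at 0.08. The actin control of the array had 891 and 1837 at its 5′ probe set in dehydration and non-stress polysomal RNA, but 8616 and 5591 at its 3′ probe set, so it was lower under dehydration at the 5′ end and higher at the 3′ end. Its 5′ to 3′ signal ratio was 0.103 in dehydration polysomal RNA, against 0.328 in non-stress polysomal RNA, and 0.192 and 0.325 in the non-polysomal counterparts. The same ratio for the GAPDH control was 0.927 and 0.822 on the dehydration and non-stress polysomal arrays. The part of RNA quality in these differences was not tested.

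Of 7 measured genes of chlorophyll synthesis and breakdown 5 lay below 0 and 1 was at least 2-fold lower, beside 4.85% of all measured loci, with a list median of -0.61. CHLM, the magnesium protoporphyrin methyltransferase, had 2321 and 6025 in dehydration and non-stress polysomal RNA and 3595 and 5279 in the non-polysomal counterparts. Earlier enzymes of the pathway were within 2-fold: HEME2 (-0.89), HEME1 (-0.71), HEMB1 (-0.61) and CHLI2 (-0.47). PORB, which performs the light-dependent step, lay on the other side at 0.70, with 8166 and 5021 in dehydration and non-stress polysomal RNA.

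Transcripts of the photosynthetic machinery were level at high signals. The 12 measured nuclear genes had a median of -0.04, which turned to 0.01 under median scaling. RCA, the activator of Rubisco, had 20266 in dehydration polysomal RNA, against 19236 in non-stress polysomal RNA, and 21355 and 23855 in the non-polysomal counterparts. PSAE-1, a photosystem I subunit, had 20496 and 18809 in dehydration and non-stress polysomal RNA. LHCB4.3, a light-harvesting protein of photosystem II, was the exception, with 2839 and 7514 in dehydration and non-stress polysomal RNA and 877 and 1734 in the non-polysomal counterparts, whereas LHCB4.1 (-0.23) and LHCB4.2 (0.12) were close to level. The 69 plastid-encoded genes had a median of -0.04, which turned to 0.02 under median scaling, and lay between -1.56 and 0.83. The 1 gene at least 2-fold lower, beside 4.85% of all measured loci, was rpl16, of the plastid ribosome. It had 1478 and 4356 in dehydration and non-stress polysomal RNA and 1331.5 and 1052 in the non-polysomal counterparts.

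Flavonoid genes went both ways. UGT78D1, a flavonol rhamnosyltransferase, had 222 and 1176 in dehydration and non-stress polysomal RNA and 211 and 535 in the non-polysomal counterparts. CHIL, which aids chalcone isomerase, had 958 and 2737 in dehydration and non-stress polysomal RNA and 804 and 1148.5 in the non-polysomal counterparts. DFR, the entry to anthocyanins, was higher, with 763.5 and 207 in dehydration and non-stress polysomal RNA and 629.5 and 255 in the non-polysomal counterparts. Of the 4 measured members of this list, added after the values were seen, 2 were at least 2-fold lower and 1 higher, with a median of -1.15. Without the filter on dim probe sets 2 of 7 were lower and 2 higher by this measure, and the median was 0. Over all measured loci the shares were 4.85% and 5.92%. UDP-glycosyltransferases, the wider family of UGT78D1, had 3 of 17 members at least 2-fold lower and 1 higher, beside the same shares. The higher one was UGT85A5, with 596 and 101.1 in dehydration and non-stress polysomal RNA, and UGT76E11 (-1.32) and UGT74D1 (-1.05) were lower.

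**Figure D4:**
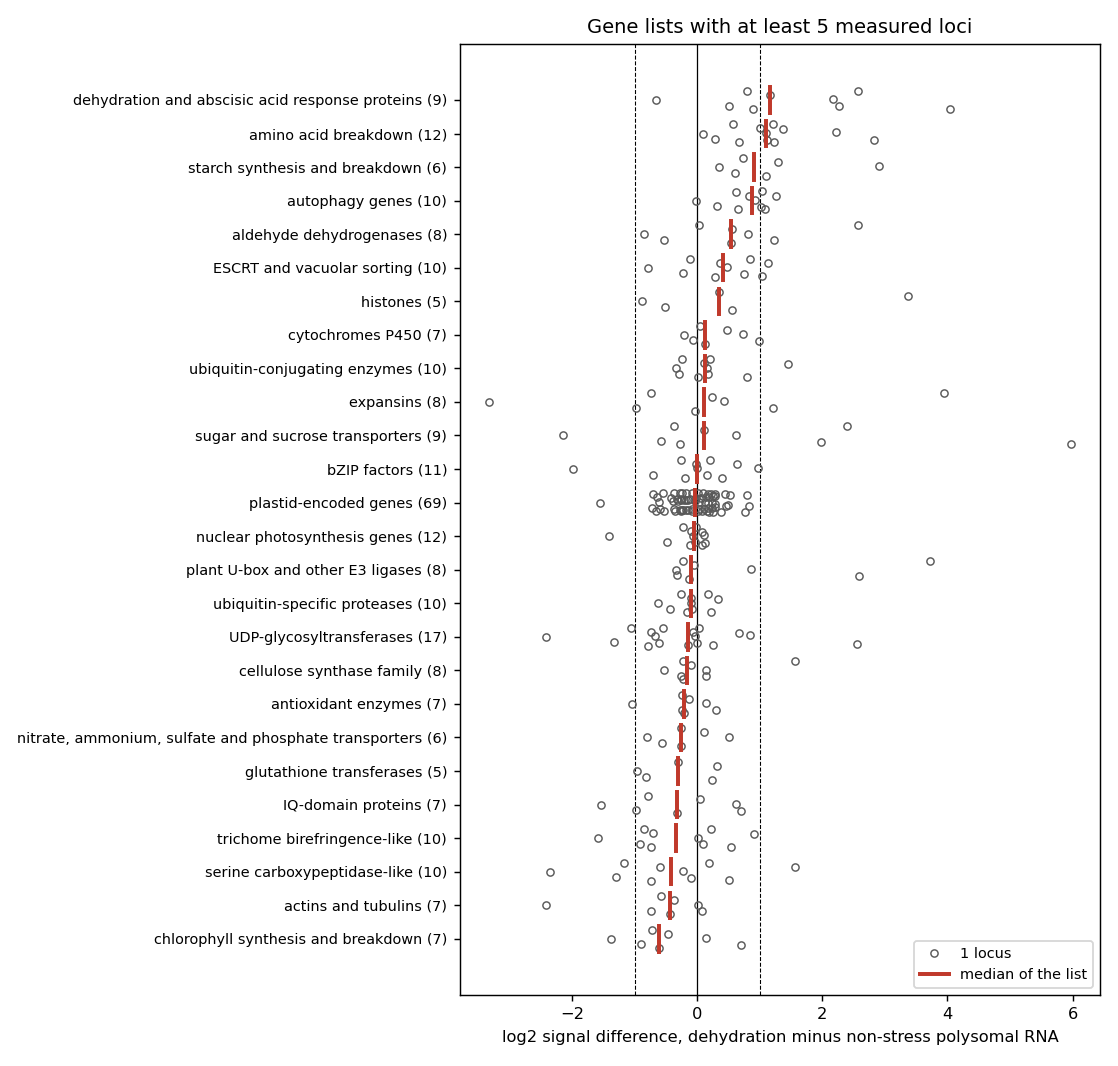
Log2 signal difference, dehydration minus non-stress polysomal RNA (horizontal axis), for the measured loci of each gene list with at least 5 of them, with the number of loci in parentheses. Open circles are loci, red bars list medians, and dashed lines mark 2-fold. The dehydration and ABA response, amino acid breakdown, starch and autophagy lists have the highest medians (1.16, 1.11, 0.92 and 0.87) and the chlorophyll list the lowest of those drawn (-0.61). The amino acid breakdown and starch lists were among those added after the values were seen.

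Ubiquitin ligases, which mark proteins for breakdown, had a median of -0.09. Of 8 measured members PUB19 and XERICO were at least 2-fold higher, beside 5.92% of all measured loci. RING1 was at 0.86, and PUB26 (-0.33), PUB24 (-0.32) and ATL4H (-0.22) were lowest. UBC30 had 3863 and 1411 in dehydration and non-stress polysomal RNA. It was the 1 of 10 ubiquitin-conjugating enzymes, a list added after the values were seen, past 2-fold, beside the same share. UBC32, which serves protein quality control in the endoplasmic reticulum, was at 0.80. None of 10 ubiquitin-specific proteases was past 2-fold, beside 5.92% of all measured loci higher and 4.85% lower, their range being -0.63 to 0.33. Serine carboxypeptidase-like genes, on a list added after the values were seen, differed more often. Of 10 measured members 3 were at least 2-fold lower and 1 higher, beside 4.85% and 5.92% of all measured loci, with a median of -0.41. SCPL49 had 3518 and 1193 in dehydration and non-stress polysomal RNA, and scpl50 78.7 and 402.

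Aldehyde dehydrogenases had 2 of 8 members at least 2-fold higher, beside 5.92% of all measured loci, and a median of 0.55. The 2 were ALDH7B4 and ALDH6B2, which other lists hold too. ALDH10A8 and ALDH10A9, betaine aldehyde dehydrogenase homologues, were at 0.53 and 0.56, and ALDH3F1 was lowest at -0.84. Antioxidant enzymes had a median of -0.21 and 1 of 7 members at least 2-fold lower, beside 4.85% of all measured loci. This was VTC4 (-1.04) of ascorbate synthesis, and glutathione reductase GR was at 0.31. Of 5 glutathione transferases and 7 cytochromes P450 none was past 2-fold, beside 5.92% of all measured loci higher and 4.85% lower. The farthest were GSTU27 at -0.96 and CYP71B26 at 0.99. Nitrate and peptide family transporters ranged from -0.81 to 0.51, with the glucosinolate transporters GTR1 and GTR2 at -0.25 and -0.26. Of 3 wax and cutin genes WSD1, a wax ester synthase, was at 1.22, the regulator SHN3 at 0.52 and AT4G13840 at -0.30.

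Senescence and carbon-starvation markers, with 4 measured, share 3 genes with the amino acid list and were all above 0, led by SAG29. The clock gene GI was at 1.07 in polysomal RNA, with 2228 and 1060.2 in dehydration and non-stress polysomal RNA and 790.3 and 651 in the non-polysomal counterparts, and TIC at -0.26.

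Some genes outside the lists were chosen for mention after their values were seen. CHI, a chitinase, had 1526 and 187.5 in dehydration and non-stress polysomal RNA (3.02), RD2, named for its response to desiccation, had 7876 and 1980.2 (1.99) and PCME, a prenylcysteine methylesterase of ABA signalling, had 729.7 and 148.5 (2.30). SKP2A, an F-box protein, was at 1.78 and AIM1, of fatty acid beta-oxidation, at 1.31. Others were lower. STOMAGEN, the peptide that promotes stomata, had 359.8 and 863 in dehydration and non-stress polysomal RNA and 1539 and 4141 in the non-polysomal counterparts. SKU5, of directional root growth, was at -1.32, the peptide gene RALFL24 at -1.54, the growth regulator TCP15 at -1.01 and TRY, a repressor of trichomes, at -1.39. MSRB6, a methionine sulfoxide reductase, was at -1.69 and CaS, a calcium-sensing thylakoid protein, at -1.33.

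The non-polysomal pair shares no array with the polysomal pair but was hybridized on the same days, so a difference between days would enter both. By 2-fold or more 491 measured probe sets (4.32%) were higher there under dehydration and 519 (4.56%) lower, for loci 221 (3.7%) and 234 (3.91%). The SD of the log2 difference was 0.617 there, against 0.733 in the polysomal pair. Across measured probe sets the differences correlated with a Pearson coefficient of 0.733 and a Spearman coefficient of 0.646, given as a description, since genes are not independent and share arrays and hybridization days. The 340 probe sets higher by 2-fold or more in both fractions made 47.0% of the polysomal and 69.2% of the non-polysomal ones. On the low side the 315 shared probe sets made 49.6% of the polysomal and 60.7% of the non-polysomal ones. None was 2-fold or more higher in either fraction and lower by as much in the other.

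By size, the 86 loci at least 4-fold higher in polysomal RNA had a median polysomal difference of 2.55 and a median non-polysomal difference of 1.65, and 72 were at least 2-fold higher in both. The non-polysomal difference was the smaller in 78 of them. The 268 loci between 2-fold and 4-fold higher had medians of 1.26 in polysomal and 0.77 in non-polysomal RNA. On the low side the 256 loci between 2-fold and 4-fold lower had medians of -1.24 and -0.79, and the 34 at least 4-fold lower had -2.42 and -1.72, of which 33 were at least 2-fold lower in both fractions. These loci were chosen by their polysomal difference, so the smaller values of the other pair are a description only.

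**Figure D5:**
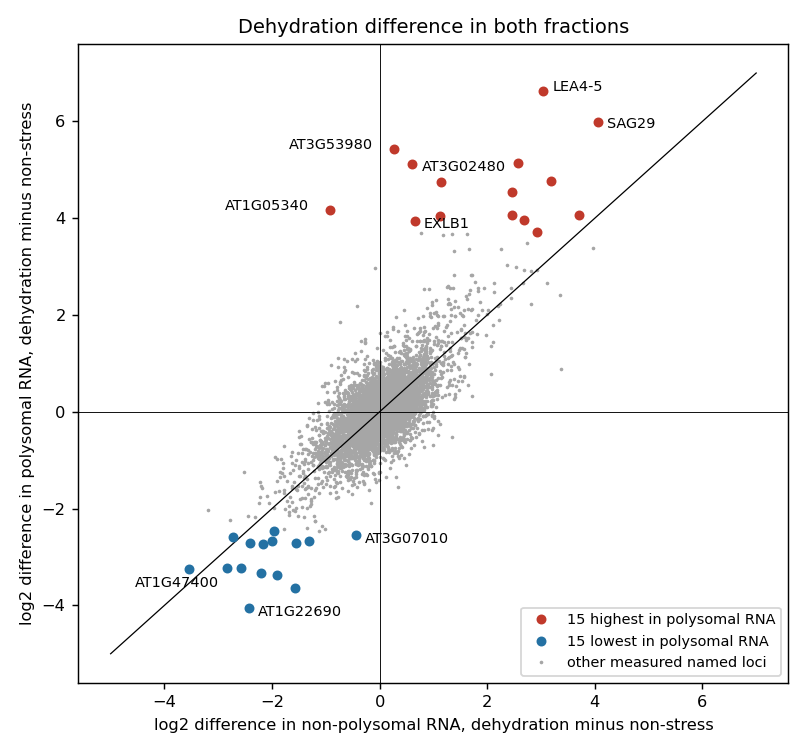
Log2 difference, dehydration minus non-stress, in polysomal RNA (vertical axis) against non-polysomal RNA (horizontal axis) for the 5978 measured named loci. Red points are the 15 highest and blue points the 15 lowest in polysomal RNA, grey points the rest, and the diagonal marks equal differences; AT1G05340 is the 1 coloured point whose differences have opposite signs.

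The view of the ABA pathway is partial. Of the 60 gene lists first drawn up, 22 had at least 3 measured members, 20 had 1 or 2 and 18 had none. For 17 of these 18 no member could be found by name in the annotation used here, so their signals were not examined. Among the 17 were ABA synthesis, ABA receptors, the phosphatases and kinases of ABA signalling, and aquaporins. Of the 723 higher probe sets 355 name 1 locus and 352 have no gene symbol in the annotation used here, and of the 635 lower ones 292 name 1 locus and 333 have none. The largest differences of all are among the unnamed: the probe set 248352_at had 14324.5 and 5.1 in dehydration and non-stress polysomal RNA and 6446 and 270.5 in the non-polysomal counterparts, and 262947_at had 186 and 5329 in dehydration and non-stress polysomal RNA and 284 and 3155 in the non-polysomal counterparts. In the 7 lists of tissue and cell type markers 2 genes were found by name. Of these 1 was measured, the guard-cell factor FMA (252 and 377 in dehydration and non-stress polysomal RNA). The tissue thus could not be checked, and the part of a difference in tissue or cell make-up was not tested.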

How the data were processed

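RNA of 4 groups, 1 sample and 1 array each, was measured on Affymetrix ATH1 arrays, a chip type given per the file headers. The deposited table holds signal intensities on a linear scale, which the authors had scaled to a mean of 500 after trimming 2% at either end, as the values show. How probes were summarised into probe sets is not stated in the labels or files used. Groups follow the labels. The number of arrays limits the precision.

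Each array was set to an equal 2% trimmed mean, signals under 69.9 (the median over arrays of percentile 25) were raised to it, and log2 was taken. The 64 controls were left out. Measured probe sets have a mean log2 signal of at least 7.74, the median. Differences are dehydration minus non-stress within a fraction. No test was run, and detection calls were not used. Python 3.11.15 with pandas 2.3.3, numpy 2.4.6, scipy 1.17.1 and matplotlib 3.10.9 was used, and the calculation was tested on simulated arrays.

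Of the probe sets other than controls 13513 had 1 gene symbol in a platform annotation, which can be old, 503 several and 8730 none; 13436 were matched to the TAIR10.1 gene table for current names. Genes named are the 15 highest and 15 lowest loci, among those reaching 4 times the lower limit on the brighter polysomal array, and up to 4 members of each list with at least 3 measured, farthest in the direction of its median, with the farthest member the other way where at least 2-fold; other list members are named beside them, chosen after their values were seen. The members and lists were chosen with earlier results of these data known, and 11 lists, among them amino acid breakdown, starch, flavonoid, ESCRT, vacuolar protease and plastid genes, were added after the values were seen, so nothing rests on them as independent evidence. Alternatives were 3 other scalings, 2 other lower limits, 3 other filters and 2 other ways to represent a locus. Promoter motifs and protein features were not analysed here.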

Additional observations from a re-analysis of the deposited data

Results flagged for a closer look

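Among measured loci whose brighter polysomal signal reached 4 times the limit, the dehydration difference had opposite signs in the fractions in 6, at 2-fold or more in at least 1 fraction and at 0.5 or more on the log2 scale in the other. Whether the fractions differ was not tested, each difference resting on 1 array a side. AT1G05340 was at 4.17 in polysomal and -0.93 in non-polysomal RNA. ETFBETA, a subunit of the electron-transfer flavoprotein, was at 1.12 in polysomal and -0.78 in non-polysomal RNA. AT5G17650, with 433 and 288 in dehydration and non-stress polysomal RNA and 145 and 292 in the non-polysomal counterparts, was at 0.59 and -1.01. AT1G27570 was at 0.54 in polysomal and -1.03 in non-polysomal RNA, with 317 and 219 in dehydration and non-stress polysomal RNA and 984 and 2004 in the non-polysomal counterparts. The other way round, AT1G20220 was at -0.53 in polysomal and 1.34 in non-polysomal RNA, and AT3G44330 was at -0.69 in polysomal RNA, with 1352 and 676 in dehydration and non-stress non-polysomal RNA.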

How the results depend on the processing

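The counts of probe sets at least 2-fold different stayed within 1.5 times under 7 of 8 alternatives, with 631 to 964 higher and 531 to 932 lower. A filter at percentile 75, which leaves fewer probe sets by construction, gave 377 higher and 337 lower. The share on the high side, 53.2%, ranged from 46.9% under scaling on the hybridization controls to 60.5% under median scaling, and the shift of the overall median with scaling was 0.06 at most. Of 318 list medians under alternatives 302 moved by less than 0.304, the SD of a single probe set, and 16 by more. With the filter at percentile 75, which leaves fewer members, the medians were 1.67 for the dehydration and ABA response list, -0.88 for IQ-domain proteins, -0.97 for expansins, 0.95 for jasmonate genes, 2.58 for ubiquitin ligases, 3.28 for senescence markers, 0.19 for serine carboxypeptidase-like genes and -0.91 for trichome birefringence-like genes. Without a filter they were 0 for IQ-domain, flavonoid and serine carboxypeptidase-like genes, -0.47 for jasmonate genes and 0.11 for wax genes. With the filter on the polysomal arrays they were 1.67 for the dehydration and ABA response list, -0.78 for flavonoid genes and -0.70 for jasmonate genes. Of 150 values of the 30 extreme loci 131 moved by less than 0.304 and none changed sign; of the 19 that moved further all but 1 did so with the lower limit halved or doubled, LEA4-5 being at 5.62 with the limit doubled, and the other was AT1G22690, at -3.74 under quantile normalization. No paired analysis was possible because each group has 1 array. With 1 array a group and 1 hybridization day a condition, no difference can be set against the spread between samples.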

Other observations

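Loci next to each other were compared by their order among protein-coding genes in the TAIR10.1 table, after the values had been seen. Of 1451 adjacent pairs with both loci measured, 15 were at least 2-fold different in the same direction (11 higher, 4 lower) and 11 in opposite directions. Over all measured loci 5.92% were higher and 4.85% lower, so some such pairs arise among unrelated loci. Whether neighbours go together was not tested, and the counts are a description only. Runs of 3 neighbours were higher in AT3G53970, AT3G53980 and AT3G53990, at 1.31, at least 5.43 and 1.36 on the log2 scale, and in AT4G27652, AT4G27654 and AT4G27657, at 2.34, 2.40 and 1.54. AT5G52750 and AT5G52760 were both at 1.98, and AT4G30650 and AT4G30660 both at 1.35. Neighbours of alike sequence can share probes, which was not checked here.

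Dim loci outside the filter also held large differences. Of 7377 such named loci 107 reached 4 times the lower limit on a polysomal array, 32 of them higher by 2-fold or more and 29 lower by as much under dehydration. A bright polysomal array with a dim mean over all arrays favours loci whose arrays differ. These counts therefore cannot be set beside the 5.92% and 4.85% of measured loci and are a description only. AT3G57010 had 605 in dehydration polysomal RNA, against 5.7 in non-stress polysomal RNA. CCR2, a cinnamoyl-CoA reductase of lignin synthesis, had 393 in dehydration polysomal RNA, against 24.6 in non-stress polysomal RNA, and was at least 5.62-fold higher. Both named loci were chosen after their values were seen.

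Among the unnamed probe sets, 247718_at had 12446 and 269.7 in dehydration and non-stress polysomal RNA and 5061 and 4062 in the non-polysomal counterparts, a large difference in the polysomal fraction and a small one in the other. The probe set 247162_at had 175 and 4588 in dehydration and non-stress polysomal RNA and 196 and 3505 in the non-polysomal counterparts, low in both fractions.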
